A study of Mus musculus with 8 samples.

Results

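The genes described here are *Trp53*, which encodes the transcription factor p53, and 9 genes that p53 is known to activate: *Cdkn1a*, *Mdm2*, *Ccng1*, *Trp53inp1*, *Bax*, *Bbc3*, *Zmat3*, *Sesn1* and *Perp*. They were chosen by name, as 10 of the 43309 genes in the count table, by a rule that used no measured value, though with earlier results of these data known. All 10 were among the 16816 genes that had at least 10 counts in at least 1 library and were therefore tested. The question was how *Trp53* and its targets differed between *Zbtb24* knockout (KO) and wild-type (WT) cells, and whether that difference was the same when libraries were made from 1000 or from 100 cells.

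The libraries came from J1 (129SV) mouse embryonic stem cells (mESCs) grown on gelatin in serum-containing medium, without feeder cells and with no further treatment. The KO cells carried the 1lox/1lox genotype of *Zbtb24*, a zinc finger gene, and the WT cells carried 2lox/+. Cells were lysed directly and converted to cDNA with the SMARTer Ultra Low RNA Kit v3, a polyA-primed protocol for very small samples, with 10 PCR cycles for 1000 cells (about 10 ng RNA) and 18 cycles for 100 cells (about 1 ng RNA). Each of the 4 combinations of genotype and cell number had 2 libraries, described as clones of that genotype. The paper reports more clones of each genotype than that. Which clone gave which library was not stated, so the p-values measure only the spread between these libraries. Cell number and PCR cycles changed together and cannot be told apart.

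p53 is held at a low protein level in unstressed cells because MDM2, itself the product of a p53 target gene, marks p53 for degradation. DNA damage and other stresses stabilize the protein, which then binds DNA as a tetramer and activates genes for cell cycle arrest, apoptosis, DNA repair and metabolism. ES cells are known for abundant p53, for a short G1 phase with little *Cdkn1a*, and for p53 that acts against self-renewal after damage. The mRNA of *Trp53* does not measure p53 protein or its activity, neither of which was measured here.

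p53 recognizes a 10-base half-site, usually present as a pair separated by a short spacer. The promoter windows of RefSeq on GRCm38.p6, from 250 bases before to 50 bases after each annotated start, were searched on both strands for the p53 half-site motif. The windows matched 7 of the 10 genes. *Trp53inp1*, *Zmat3* and *Perp* had no entry. The motif stood in at least 1 window of 6 of the 7 genes, all but *Bbc3*, and in 6 of their 11 windows (54.55%). For comparison, it stood in 2745 of all 32851 windows (8.356%). By gene, it stood in at least 1 window of 2582 of all 27025 genes (9.554%) and of 6 of 24 other p53 target genes (25%). The matched stretches are shown because they let the target genes be compared by sequence with their values. They are given 5′ to 3′ on the strand of the gene, with the half-site in capitals and 10 bases on each side, and are the reference sequence, not that of the 129SV cells.
Trp53, chr11:69580274-69580303, plus strand: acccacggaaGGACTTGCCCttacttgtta
Cdkn1a, first match, chr17:29090896-29090925, plus strand: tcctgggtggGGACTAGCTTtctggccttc
Cdkn1a, second match, chr17:29090918-29090947, plus strand: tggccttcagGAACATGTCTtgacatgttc
Mdm2, chr10:117710925-117710954, minus strand: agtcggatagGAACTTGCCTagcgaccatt
Ccng1, chr11:40755452-40755481, minus strand: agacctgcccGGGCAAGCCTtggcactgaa
Bax, chr7:45467080-45467109, minus strand: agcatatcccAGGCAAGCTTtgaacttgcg
Sesn1, chr10:41887256-41887285, plus strand: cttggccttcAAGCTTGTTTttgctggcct

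The first base of the half-site lay 75 bases before the annotated start in *Trp53*, 73 and 51 bases before it in *Cdkn1a*, 186 in *Mdm2*, 185 in *Ccng1*, 201 in *Bax* and 173 in *Sesn1*. The *Sesn1* window belongs to a start inside the gene, not to its most upstream start. The windows of *Cdkn1a* also held the only pair of half-sites with a spacer of at most 13 bases among these genes, an arrangement found in 0.07306% of all windows. These matches describe sequence only. No binding was measured, and sites outside the windows were not searched.

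The depth ranged from 9666985 counts (WT, 100 cells, replicate 1) to 16686525 (WT, 1000 cells, replicate 1). Levels are given in cpm, counts scaled to a common library size that was adjusted by the TMM method (trimmed mean of M values). The targeted gene, *Zbtb24*, went against its label. Its level was 14.1 and 16.4 cpm in the 1000-cell libraries labelled WT, 40.9 and 37.7 in those labelled KO, 19.5 and 20.3 in the 100-cell libraries labelled WT and 39.7 and 37.3 in those labelled KO. A count over all exons does not show whether a segment is missing, so "KO" and "WT" are used below for the libraries with those labels, and every direction rests on them. The defining markers of ES cells were present, with all 8 (*Pou5f1*, *Nanog*, *Sox2* and others) detected in every group and a summed level of 5743 to 7252 cpm. Between KO and WT, 6 of the 8 differed past the threshold at 1000 cells (4 higher, 2 lower) and 4 at 100 cells (3 higher, 1 lower). Among all tested genes 41.5% and 34.2% did. *Pou5f1* was lower in KO at 1000 cells (log2 ratio −0.41) and higher at 100 cells (0.46). The 2 WT libraries of 100 cells stood apart from each other more than any other pair of replicates (chi-square per degree of freedom of 17.6, against 1.99 to 3.28 in the other groups). The KO libraries of 100 cells stood apart in another way. Of 12 brain markers, *Stmn2* and *Aldoc* were high in all libraries, and the other 10 (*Snap25*, *Syt1*, *Mobp* and others) summed to 338 to 345 cpm in KO at 100 cells, against 16 to 19.4 in WT at 100 cells, 38.1 to 39.3 in KO at 1000 cells and 17.02 to 17.26 in WT at 1000 cells. *Aqp4*, a marker of astrocytes, was at 0 in both groups of 1000 cells. All 12 differed past the threshold between KO and WT at 100 cells (11 higher, 1 lower), as did 6 of them at 1000 cells (5 higher, 1 lower), so every comparison below that uses the KO libraries of 100 cells carries this difference, whose part in the results was not tested. In bulk libraries, fewer cells that express a gene and less RNA per cell cannot be told apart.

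*Trp53* had by far the most abundant mRNA of the 10 genes. On the scale of cpm per kb of exon, *Trp53* had a mean of 349.5 ± 45.7 (SD, n = 8 libraries) and ranked 150th of 16697 tested genes with a known length. *Bax* followed with 113 ± 32.9 and *Ccng1* with 56.1 ± 9.79. *Mdm2* had 19.8 ± 3.81, *Perp* 13.2 ± 3.48, *Trp53inp1* 11.04 ± 2.79, *Cdkn1a* 6.38 ± 1.00, *Sesn1* 5.03 ± 0.598, *Zmat3* 3.10 ± 0.790 and *Bbc3* 1.40 ± 0.411. The ranges over the 8 libraries were separate between *Trp53* and *Bax*, *Bax* and *Ccng1*, *Ccng1* and *Mdm2*, and *Sesn1* and *Zmat3*. All other neighbours in this order overlapped. Parts of this order depend on the division by exon length. By mean cpm, *Ccng1* (196.9) came before *Bax* (178), and *Trp53inp1* (71.51) and *Zmat3* (35.49) before *Perp* (25.67) and *Cdkn1a* (22.66). *Zmat3* came before *Sesn1* by either scale only in reverse, being lower per kb and higher by cpm. The mRNA of the arrest gene *Cdkn1a* lay near the lower end on both scales. The counts behind the order ran from 22 to 57 per library for *Bbc3* up to 13863 to 21853 for *Trp53*.

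**Figure D1:**
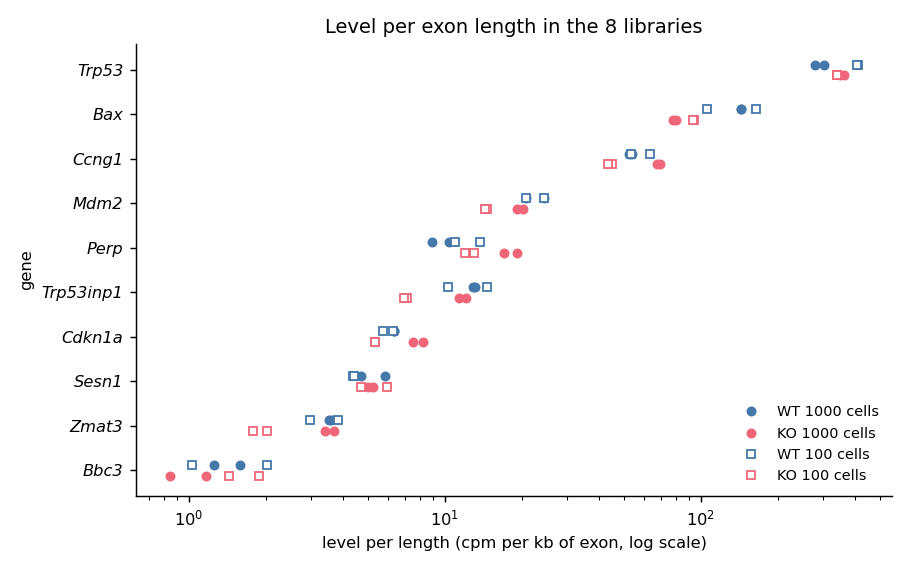
Level per exon length (cpm per kb, log scale, horizontal) of *Trp53* and 9 target genes in each of the 8 libraries. Blue marks are WT and red marks KO, filled circles are 1000 cells and open squares 100 cells. The points run from 280 to 412 cpm per kb for *Trp53* down to 0.847 to 2.02 for *Bbc3*, and the *Trp53* points touch those of no other gene.

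KO and WT differed at 1000 cells in 6 of the 10 genes, in both directions. *Trp53*, *Cdkn1a*, *Ccng1* and *Perp* were higher in KO, and *Mdm2* and *Bax* were lower. Among all tested genes 41.5% were called in this comparison, 20.9% higher and 20.6% lower, so a large share of all genes differed too. At 100 cells 6 of the 10 genes were again called, and all 6 (*Trp53*, *Mdm2*, *Ccng1*, *Trp53inp1*, *Bax* and *Zmat3*) were lower in KO. The share among all tested genes was 34.2%, with 17.6% higher and 16.6% lower. The median log2 ratio of the 10 genes was −0.02 at 1000 cells and −0.38 at 100 cells, against −0.00089 and −0.0010 for all tested genes. Without regard to direction, the median size of the 10 log2 ratios was 0.30 and 0.38, and that of all tested genes was 0.38 and 0.47. Counting libraries, the KO and WT values did not overlap for 8 of the 10 genes at 1000 cells (4 higher and 4 lower), where 69.3% of all tested genes did not overlap. At 100 cells they did not overlap for 8 genes (1 higher and 7 lower), where the share of all tested genes was 70.1%.

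**Figure D2:**
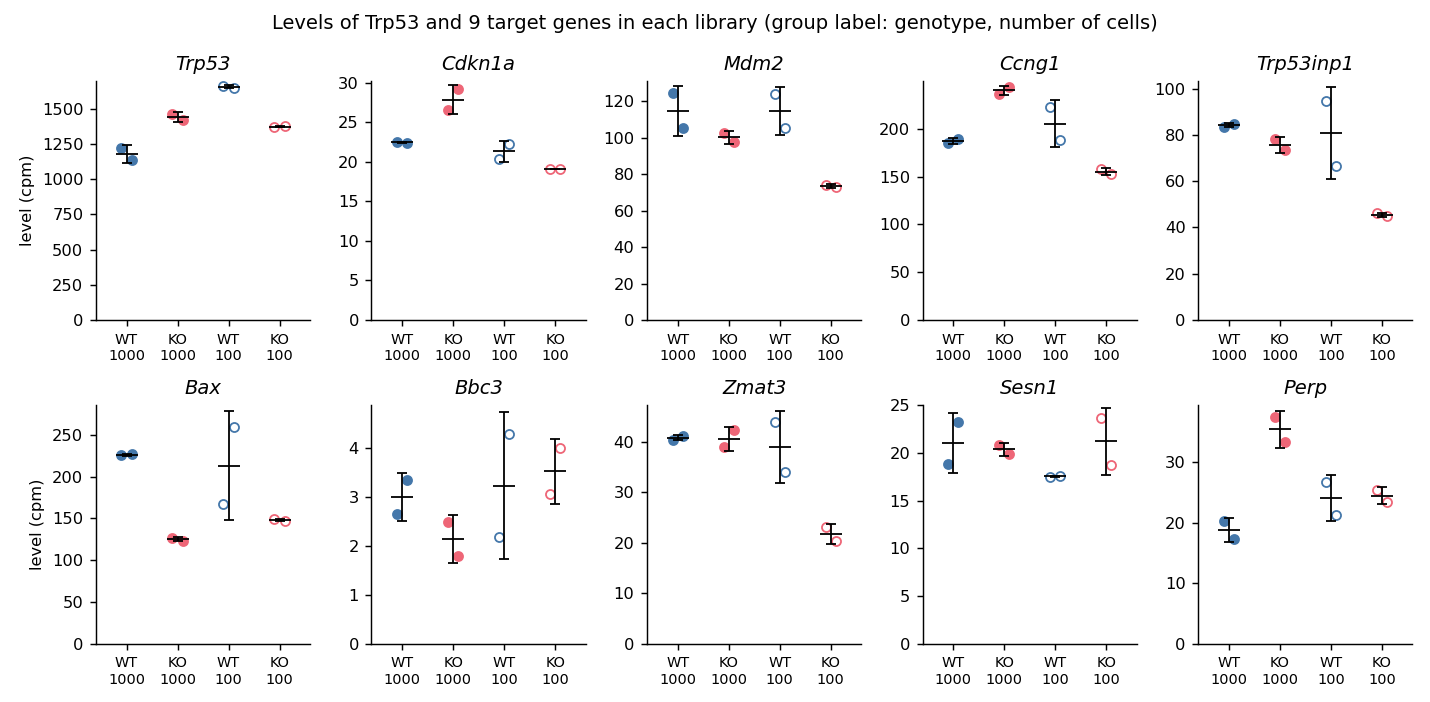
Level (cpm, vertical, from 0) of each of the 10 genes in each library, with the group label giving genotype and number of cells. Points are single libraries (blue WT, red KO, filled 1000 cells, open 100 cells), and black bars are the mean ± SD of 2 libraries. *Perp* is highest in KO at 1000 cells, and *Mdm2*, *Trp53inp1* and *Zmat3* are lowest in KO at 100 cells.

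*Trp53* (ENSMUSG00000059552, GRCm38 chr11:69580359-69591873, plus strand, protein-coding) changed direction between inputs. At 1000 cells its level was 1224 and 1134 cpm in WT and 1466 and 1420 in KO. The libraries of 100 cells had 1666 and 1649 in WT and 1373 and 1378 in KO. At 1000 cells both KO libraries were above both WT libraries, and at 100 cells both were below. By the edgeR quasi-likelihood test, with p-values adjusted after Benjamini and Hochberg, KO exceeded WT at 1000 cells by a log2 ratio of 0.29 ± 0.05 (SE, adjusted p = 6.3e-05). At 100 cells the log2 ratio was −0.31 ± 0.11 (adjusted p = 0.049). The call at 1000 cells held under all 13 alternatives. The call at 100 cells was lost under 6 of 13, among them the leaving out of either KO library (largest adjusted p = 0.54). Processed copies share part of this sequence, since 3.95% of the 50-base windows of *Trp53* also stood in other annotated transcripts, among them *Trp53-ps*, and fragments that matched several positions were discarded before counting.

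*Mdm2* (chr10:117688875-117710758, minus strand), the ubiquitin ligase that degrades p53, was lower in KO at both inputs. Its level was 124 and 105 cpm in WT and 102 and 97.6 in KO for 1000 cells, and 124 and 105 in WT and 74.3 and 72.9 in KO for 100 cells. The KO libraries were below the WT libraries at each input, by a narrow margin at 1000 cells and by a wider one at 100 cells. KO over WT gave a log2 ratio of −0.20 ± 0.08 with 1000 cells (edgeR quasi-likelihood, adjusted p = 0.035) and of −0.68 ± 0.12 with 100 cells (adjusted p = 0.0026). The smaller difference lost its call under 5 of 13 alternatives, with adjusted p up to 0.58, and did so without WT replicate 1 (log2 ratio −0.07) or KO replicate 2 (−0.17). The larger one lost it only without KO replicate 2 (adjusted p = 0.054).

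*Ccng1* (chr11:40748552-40755311, minus strand) encodes cyclin G1, which binds MDM2 together with a phosphatase. It changed direction as *Trp53* did. Its level was 185 and 189 cpm in WT and 237 and 244 in KO at 1000 cells, a log2 ratio of 0.36 ± 0.06 (edgeR quasi-likelihood, adjusted p = 2.1e-05). With 100 cells its level was 223 and 188 in WT and 158 and 152 in KO, a log2 ratio of −0.45 ± 0.12 (adjusted p = 0.016). The KO libraries of 1000 cells were the highest of the 8, and those of 100 cells the lowest. The call at 1000 cells held under all 13 alternatives, and the one at 100 cells was lost without either KO library (largest adjusted p = 0.25). *Trp53* and *Ccng1* are the only 2 of the 10 genes that were called at both inputs with opposite signs, which 1.42% of all tested genes were. *Mdm2* and *Bax* are the only 2 called at both with the same sign, which 16.8% of all tested genes were.

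*Cdkn1a* (chr17:29090976-29100727, plus strand) encodes p21, the CDK inhibitor that carries out the p53-dependent arrest in G1. It had 22.5 and 22.4 cpm in WT and 26.6 and 29.2 in KO at 1000 cells. The 100-cell libraries had 20.4 and 22.3 in WT and 19.0 in both KO libraries. As for *Ccng1*, the KO libraries of 1000 cells were the highest of the 8 and those of 100 cells the lowest. The difference passed the test with 1000 cells (log2 ratio 0.31 ± 0.11, edgeR quasi-likelihood, adjusted p = 0.019) and did not with 100 cells (−0.21 ± 0.14, adjusted p = 0.29). The call at 1000 cells was lost under 6 of 13 alternatives, including DESeq2 (adjusted p = 0.12), without WT replicate 1 and without KO replicate 2 (largest adjusted p = 0.18). An annotated transcript on the opposite strand overlaps 273 bases (7.68%) of its exons. Counting ignored the strand, and that transcript has no row in the count table.

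The genes linked to apoptosis did not move as a group. *Bax* (chr7:45461697-45466898, minus strand), the pore-forming BCL2 family member, had 226 and 227 cpm in WT and 127 and 123 in KO at 1000 cells. With 100 cells it had 167 and 259 in WT and 149 and 147 in KO. All 4 KO libraries were below all 4 WT libraries, and the WT libraries of 100 cells lay far apart. Its log2 ratios were −0.86 ± 0.06 with 1000 cells (edgeR quasi-likelihood, adjusted p = 8.2e-12) and −0.57 ± 0.17 with 100 cells (adjusted p = 0.029). The first held under all 13 alternatives, and the second was lost under 3, among them the leaving out of either KO library (largest adjusted p = 0.14). The log2 ratio at 100 cells was −0.84 without WT replicate 1 and −0.21 without WT replicate 2, and both were called. A transcript on the same strand, *Gm45808*, which has no row in the count table, overlaps 192 bases (12.2%) of its exons.

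*Bbc3* (chr7:16308393-16318205, plus strand), which encodes the BH3-only protein PUMA, had the fewest counts of the 10 genes. It had 2.66 and 3.35 cpm in WT and 2.49 and 1.80 in KO at 1000 cells, and 2.18 and 4.30 in WT and 3.06 and 4.01 in KO at 100 cells. The groups overlapped at 100 cells. Neither log2 ratio passed the test, at −0.48 ± 0.30 (edgeR quasi-likelihood, adjusted p = 0.20) and 0.05 ± 0.36 (adjusted p = 0.92), from 22 to 57 counts per library.

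*Perp* (chr10:18845020-18857073, plus strand), a membrane protein gene of apoptosis and cell adhesion, had the largest log2 ratio of the 10 genes at 1000 cells. It had 20.3 and 17.4 cpm in WT and 37.5 and 33.3 in KO at 1000 cells. In the 100-cell libraries it had 26.7 and 21.4 in WT and 25.5 and 23.4 in KO. The groups were wide apart at 1000 cells and overlapped at 100 cells. KO exceeded WT by a log2 ratio of 0.90 ± 0.11 with 1000 cells (edgeR quasi-likelihood, adjusted p = 1.2e-07), a call that held under all 13 alternatives. With 100 cells the log2 ratio was −0.02 ± 0.16 (adjusted p = 0.95).

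*Trp53inp1* (chr4:11156431-11174379, plus strand), a stress protein gene of apoptosis and autophagy, differed past the threshold at 100 cells. It had 83.5 and 84.8 cpm in WT and 78.3 and 73.3 in KO at 1000 cells, a log2 ratio of −0.15 ± 0.08 that did not pass the test (edgeR quasi-likelihood, adjusted p = 0.11). With 100 cells it had 94.6 and 66.6 in WT and 46.1 and 44.9 in KO, a log2 ratio of −0.87 ± 0.16 (adjusted p = 0.0040). Both KO libraries of 100 cells were below every other library, while the WT libraries of 100 cells lay on either side of those of 1000 cells.

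*Zmat3* (chr3:32334792-32366014, minus strand), which encodes an RNA-binding zinc finger protein, gave a similar picture. Its level at 1000 cells was 40.4 and 41.2 cpm in WT and 38.9 and 42.2 in KO, with overlapping groups and a log2 ratio of −0.0062 ± 0.09 (edgeR quasi-likelihood, adjusted p = 0.97). With 100 cells it was 43.9 and 34.0 in WT and 23.1 and 20.3 in KO, a log2 ratio of −0.88 ± 0.16 (adjusted p = 0.0034). The 100-cell calls of *Zmat3* and *Trp53inp1* were the only ones of the 6 that held under all 13 alternatives, the leaving out of each library included.

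*Sesn1* (chr10:41809935-41908424, plus strand), which encodes a sestrin that restrains mTORC1 signalling, passed no test. It had 18.8 and 23.2 cpm in WT and 20.8 and 19.9 in KO at 1000 cells, and 17.5 and 17.6 in WT and 23.7 and 18.7 in KO at 100 cells. The groups overlapped at 1000 cells, and at 100 cells both KO libraries were above both WT libraries. The log2 ratio was −0.04 ± 0.12 (edgeR quasi-likelihood, adjusted p = 0.84) and 0.23 ± 0.16 (adjusted p = 0.30). The second was 0.056 without KO replicate 1 and 0.38 without KO replicate 2.

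**Figure D3:**
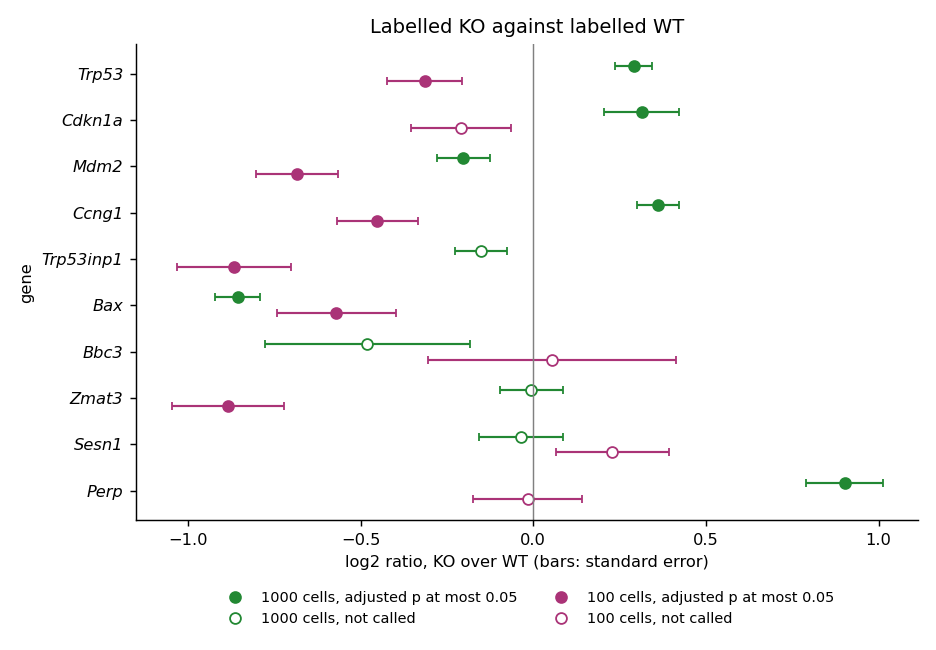
Log2 ratio of KO to WT (horizontal, bars are the SE of the edgeR fit) for each gene at 1000 cells (green) and 100 cells (purple). Filled points have an adjusted p of at most 0.05. All 6 filled purple points lie left of 0, while 4 filled green points lie right of it and 2 left.

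Set beside the promoter sequences, the 6 genes with a half-site were called in both directions at 1000 cells and in 1 direction at 100 cells. At 1000 cells *Trp53*, *Cdkn1a* and *Ccng1* were higher in KO, *Mdm2* and *Bax* were lower and *Sesn1* did not pass the test. At 100 cells *Trp53*, *Mdm2*, *Ccng1* and *Bax* were lower in KO, and *Cdkn1a* (−0.21) and *Sesn1* (0.23) did not pass the test. The single direction at 100 cells was shared by *Trp53inp1* (−0.87) and *Zmat3* (−0.88), which had no window to search. *Perp*, also without a window, was higher in KO at 1000 cells (0.90). *Bbc3*, searched without a match, passed neither test. The called share of all tested genes was 41.5% with 1000 cells and 34.2% with 100 cells.

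The difference between the inputs was itself tested as an interaction of genotype and input over all 8 libraries. It passed the threshold for 5 of the 10 genes, all with a negative value, that is, with a KO to WT ratio that was lower at 100 than at 1000 cells. Among all tested genes 16.3% passed, 9.28% with a positive and 7.05% with a negative value. The log2 interaction was −0.87 ± 0.20 for *Perp* (edgeR quasi-likelihood, adjusted p = 0.0099), −0.83 ± 0.18 for *Zmat3* (adjusted p = 0.0093) and −0.77 ± 0.13 for *Ccng1* (adjusted p = 0.0025). It was −0.67 ± 0.18 for *Trp53inp1* (adjusted p = 0.025) and −0.56 ± 0.12 for *Trp53* (adjusted p = 0.0071). *Cdkn1a* and *Mdm2* had values in the same direction that did not pass the test, at −0.48 ± 0.17 (adjusted p = 0.069) and −0.44 ± 0.15 (adjusted p = 0.057). *Bax*, *Bbc3* and *Sesn1* had positive values of 0.33, 0.57 and 0.31, none of which passed the test (adjusted p = 0.28 to 0.44). That of *Bax* was 0.047 without WT replicate 1 of 100 cells and 0.68 without WT replicate 2, where it was called as a positive interaction (adjusted p = 9.9e-07). The median interaction of the 10 genes was −0.52, against 0.0034 for all tested genes. Of the 5 calls, that of *Ccng1* held under all 16 alternatives. That of *Trp53* was lost without WT replicate 2 of 1000 cells or without either KO library of 100 cells (largest adjusted p = 0.058). That of *Zmat3* was lost without WT replicate 1 or KO replicate 2 of 1000 cells or KO replicate 2 of 100 cells (largest adjusted p = 0.072). That of *Perp* was lost without WT replicate 2 of 1000 cells or KO replicate 2 of 100 cells (largest adjusted p = 0.068), and that of *Trp53inp1* under 7 alternatives, among them the leaving out of any library but the WT libraries of 100 cells (largest adjusted p = 0.11).

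The ratio of 100 to 1000 cells was read within each genotype. These ratios use the same libraries as the comparisons above and are another view of them, not further evidence. In WT, edgeR called 0 of the 10 genes (1, *Trp53*, at an unadjusted p under 0.05, and 1 by DESeq2), and among all tested genes 0.827% were called, 0.149% higher and 0.678% lower. This share depended on the WT libraries of 100 cells, which lay far apart. Of the 16816 genes 139 were called, against 2631 without replicate 1 and 2601 without replicate 2 of 100 cells, and 20 and 6 without replicate 1 and 2 of 1000 cells. Of the 10 genes, 2 and 4 were called without replicate 1 and 2 of 100 cells and 0 without either library of 1000 cells. *Trp53* came closest, with a log2 ratio of 0.48 ± 0.11 (adjusted p = 0.063). In KO, 8 of the 10 genes were called, 2 higher and 6 lower, where 52.1% of all tested genes were called, 27.3% higher and 24.8% lower. The 6 lower genes were *Zmat3* (−0.90 ± 0.09), *Trp53inp1* (−0.73 ± 0.07), *Ccng1* (−0.63 ± 0.06), *Cdkn1a* (−0.55 ± 0.10), *Perp* (−0.53 ± 0.10) and *Mdm2* (−0.44 ± 0.07), each with an edgeR adjusted p of at most 3.1e-05 and each called under all 13 alternatives. *Bax* and *Bbc3* were higher, by 0.25 ± 0.06 (adjusted p = 0.00070) and 0.73 ± 0.27 (adjusted p = 0.023), and the call of *Bbc3* was lost under 6 of 13 alternatives, including without KO replicate 2 of either input (largest adjusted p = 0.25). *Trp53* did not pass the test in KO (−0.07 ± 0.05, adjusted p = 0.24). The targets *Zmat3*, *Trp53inp1*, *Ccng1*, *Cdkn1a*, *Perp* and *Mdm2* were thus lower in the KO libraries with the raised brain markers, whereas the *Trp53* mRNA in the same libraries was at 0.955 of its level at 1000 cells. By chromosome, the other tested genes on the chromosomes of the 10 genes had median log2 ratios between −0.065 and 0.046 in this comparison. A cause at the level of chromosomes or their regions was not tested.

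**Figure D4:**
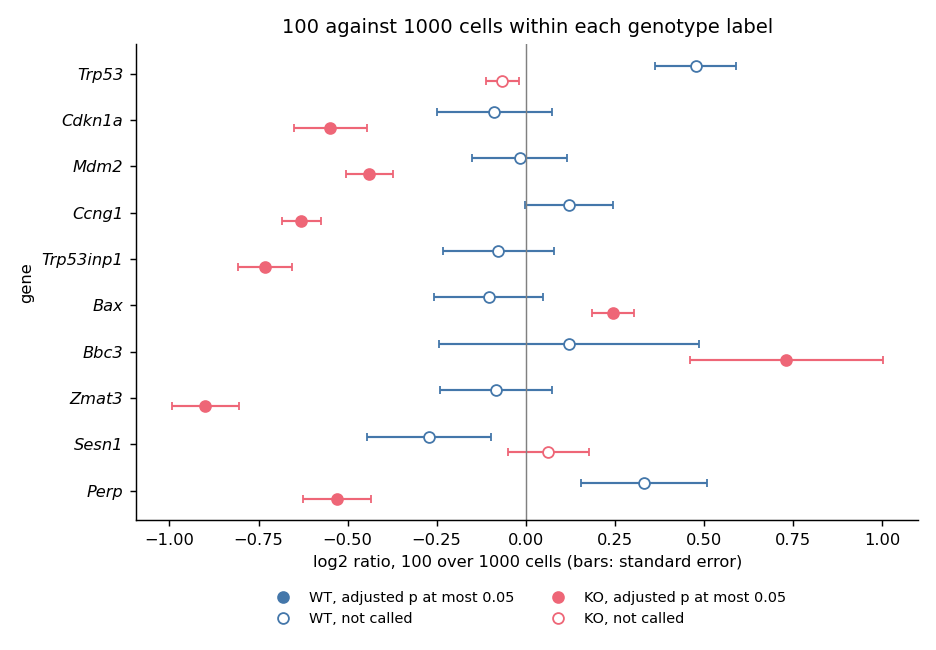
Log2 ratio of 100 to 1000 cells (horizontal, bars are the SE of the edgeR fit) for each gene in WT (blue) and KO (red). Filled points have an adjusted p of at most 0.05. No blue point is filled, and 6 of the 8 filled red points lie between −0.44 and −0.90.

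A list of 30 other genes reported as p53 targets was read from the same tests. At 1000 cells 10 were higher and 7 lower in KO, and at 100 cells 8 were higher and 8 lower, with a median log2 ratio of 0.05 and −0.18. Among all tested genes 41.5% and 34.2% were called. Without either KO library of 100 cells, fewer of the 30 and fewer of all tested genes were called at 100 cells. Of the 30, 9 were called in the same direction at each input, against 16.8% of all tested genes. Called in opposite directions was 1, the antiproliferative gene *Btg2* (0.65 at 1000 cells and −0.62 at 100 cells), against 1.42% of all tested genes. The interaction passed the threshold for 5 of the 30, a share near the 16.3% of all tested genes, negative for *Btg2* (−1.23), the death receptor gene *Eda2r* (−1.11) and the apoptosome gene *Apaf1* (−0.86), and positive for *Xpc* (0.60) and *Plk3* (0.58). *Btg2* and *Eda2r* thus had values on the side of *Ccng1* and *Zmat3*, but this list as a whole had no common direction.

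Among the other targets that moved alike at both inputs, *Ddit4*, an inhibitor of mTORC1 that also answers to other stresses, had 5.50 and 5.15 cpm in WT and 13.05 and 12.25 in KO at 1000 cells. With 100 cells it had 2.87 and 6.79 in WT and 21.3 and 26.1 in KO. Every KO library was above every WT library, with log2 ratios of 1.24 ± 0.17 (edgeR quasi-likelihood, adjusted p = 6.3e-07) and 2.21 ± 0.30 (adjusted p = 0.00081). The epoxide hydrolase gene *Ephx1* (1.19 and 0.79 at 1000 and 100 cells), the ribonucleotide reductase gene *Rrm2b* (0.77 and 0.55) and the sestrin gene *Sesn2* (0.32 and 0.76) were also higher. *Sesn2* and *Ddit4* were thus higher in KO, while *Sesn1*, of the same family as *Sesn2*, did not pass the test at either input. In the other direction, the nuclease gene *Aen* had 75.1 and 67.8 cpm in WT and 41.6 and 36.2 in KO at 1000 cells, and 76.8 and 86.9 in WT and 58.7 and 59.9 in KO at 100 cells. Its log2 ratios were −0.88 ± 0.09 (edgeR quasi-likelihood, adjusted p = 3.3e-09) and −0.51 ± 0.11 (adjusted p = 0.0082), close to those of *Bax*. *Tigar*, which redirects glycolytic sugar to the pentose phosphate pathway (−0.61 and −0.54), the kinase gene *Plk2* (−0.46 and −0.88) and *Pidd1*, a scaffold for caspase-2 (−0.42 and −1.22), were lower too.

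Regulators of p53 were read in the same way. Of 19 tested, 8 were higher and 5 lower at 1000 cells, where 20.9% of all tested genes were higher and 20.6% lower. At 100 cells 2 were higher and 2 lower, where the shares were 17.6% and 16.6%. The median log2 ratios were 0.03 and −0.09. The p53-binding gene *Trp53bp2* (0.76 and 0.52) and the checkpoint kinase gene *Atr* (0.24 and 0.56) were higher at both inputs, and the deacetylase gene *Sirt1* (−0.20 and −0.36) was lower. *Cdkn2a*, whose ARF product restrains MDM2, was barely detected, with 22 and 11 counts in WT and 3 and 2 in KO at 1000 cells, and 6 and 17 in WT and 0 and 0 in KO at 100 cells. All KO libraries were below all WT libraries, and it was called at both inputs (edgeR quasi-likelihood, adjusted p = 0.0038 and 0.0094). Against a floor of 3 counts over both KO libraries of 100 cells, its level there was at least 8.33-fold lower than the mean of the WT libraries and at least 5.27-fold lower than WT replicate 1, the lower of them. With the first bound in place of the fitted value the list's median at 100 cells was −0.09. Both floors and bounds cover counting error only, since PCR copies are not independent molecules. Of the other family members, *Trp63* had at most 4 counts in any library and was not tested, and *Trp73* (7 to 20 counts) was not called in KO against WT at either input.

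Cell cycle genes downstream of p21 were read as a further list. The 20 targets of DREAM, a repressor complex that contains RB-family proteins and that p21 favours, gave 9 higher and 2 lower in KO at 1000 cells and 3 higher and 1 lower at 100 cells, with median log2 ratios of 0.08 and 0.15. Here and for the next lists, the shares called among all tested genes were 41.5% at 1000 cells (20.9% higher and 20.6% lower) and 34.2% at 100 cells (17.6% higher and 16.6% lower). Those called higher at both inputs were the mitotic genes *Nek2* (0.29 and 0.95), *Cdc25c* (0.44 and 0.51) and *Kif23* (0.22 and 0.56). At 1000 cells most called DREAM genes were higher in KO, as was *Cdkn1a*, whose call was lost under 6 of 13 alternatives. A link between them was not tested. The median size of the 20 log2 ratios there was 0.18, against 0.38 for all tested genes. Among 12 CDK inhibitors, G1 cyclins and RB-family genes, 4 were higher and 2 lower at 1000 cells and 3 higher and 4 lower at 100 cells. The retinoblastoma gene *Rb1* (0.57 and 1.45), its relative *Rbl1* (0.35 and 0.68) and the cyclin gene *Ccnd3* (0.26 and 0.60) were higher at both inputs, and *Cdkn1c*, which encodes the p21 relative p57, was lower (−0.43 and −0.81). Of 12 other BCL2 family genes, 2 were higher and 3 lower at 1000 cells and 1 higher and 3 lower at 100 cells. The BH3-only gene *Hrk* (1.47 and 1.57, from 5 to 44 counts per library) was higher and the anti-apoptotic gene *Mcl1* (−0.28 and −0.37) lower at both inputs.

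**Figure D5:**
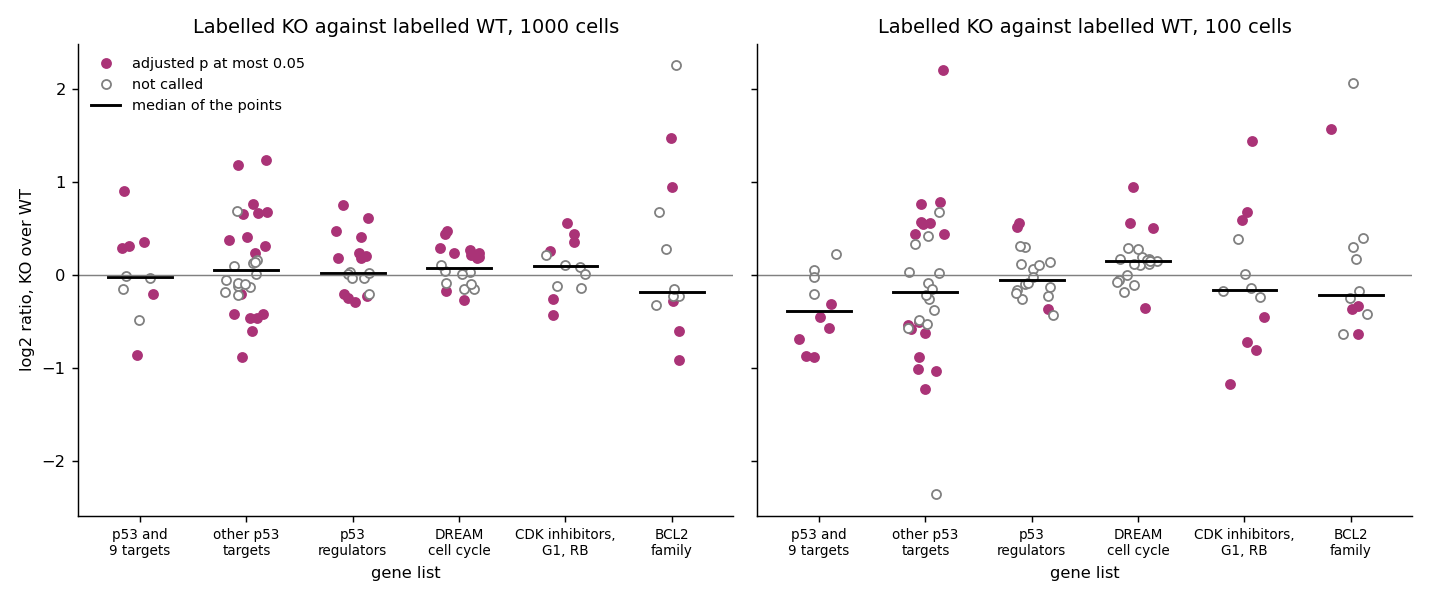
Log2 ratio of KO to WT (vertical) of each tested gene of 6 lists at 1000 cells (left) and 100 cells (right). Filled points have an adjusted p of at most 0.05, bars are the median of the points, and *Cdkn2a* is left out because it had no counts in KO at 100 cells. The first list has filled points on both sides of 0 at 1000 cells and only below 0 at 100 cells, while the 30 other targets have filled points on both sides at both inputs.

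Genes whose levels followed *Trp53* and *Cdkn1a* closely were sought among 8359 tested genes that averaged 10 cpm or more, the 10 genes themselves left out. As a description over 8 libraries that share their groups and depths, Pearson's r of the log2 levels with *Trp53* was 0.934 for *Pan2* and 0.933 for *Mrpl54*. With *Cdkn1a* it was 0.985 for *Ago1*, 0.982 for *Taf4* and 0.980 for *Acot9*. *Ago1*, for example, had 23.8 and 23.3 cpm in WT and 28.1 and 29.3 in KO at 1000 cells, and 19.9 and 22.5 in WT and 19.2 and 19.7 in KO at 100 cells, which puts the 8 libraries in the same order as *Cdkn1a* does.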

How the data were processed

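The deposited table held raw fragment counts per gene for the 8 libraries. Before depositing it, the authors filtered out rRNA reads (Bowtie2 2.1.0), mapped the rest to mm10 (TopHat2 2.0.10) and counted fragments per GENCODE M4 gene with HTSeq 0.6.1, without strand and discarding fragments with several matches. Versions follow the submitters' processing notes. Whether PCR duplicates were removed was not stated. Reads or fragments from overlapping genes can therefore be lost or shared. Groups and replicates were taken from the labels.

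A gene was kept if any library had 10 or more counts for it (16816 genes). The quasi-likelihood test of edgeR 4.0.16 in R 4.3.3, with TMM normalization and Benjamini-Hochberg adjustment over all kept genes, was run two-sided at a threshold of 0.05. KO and WT were compared within each input, 100 and 1000 cells within each genotype, and the interaction over all 8 libraries. A permutation test of 2 against 2 libraries cannot reach the threshold. Alternatives were limma 3.58.1 (voom), DESeq2 1.42.0, other scalings and filters, thinning of counts, a log2 size over 1, 1 fit of all libraries, a replicate block and the leaving out of each library. Counts of alternatives given for single genes leave out the log2 size over 1. On simulated counts with the means of these libraries, edgeR recovered 100 of 100 genes changed by a log2 of 1 at each input, with 9 false calls among 16816 genes at 1000 cells and 11 at 100 cells. The simulation gave all genes the same spread between replicates and changed only genes with many counts. It therefore does not show recovery or false calls at the spread of these libraries, whose chi-square per degree of freedom ran from 1.99 to 17.6. Nor does it cover genes of few counts such as *Bbc3*.

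The 10 genes and all lists were chosen with earlier results of these data known. Of the other lists, genes were named when called at each input in the same direction and without overlap of KO and WT libraries, up to 4 in each direction by mean log2 size. *Btg2*, *Eda2r*, *Apaf1*, *Xpc* and *Plk3*, as well as *Trp63* and *Trp73*, were named after their values were seen. The 3 genes most like *Trp53* and *Cdkn1a* were ranked on log2(cpm + 0.5), and 1 of them is not reported here. Gene models and positions were those of GENCODE M21 on GRCm38 (mm10), a later release than M4, and 42425 of 43309 identifiers (97.96%) matched. Same-numbered libraries of KO and WT correlated in their deviations from the group means with r of 0.154 at 1000 cells and 0.17 at 100 cells (8368 genes). With only 2 pairs per comparison this does not pair them, so no block was used.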

Additional observations from a re-analysis of the deposited data

Results flagged for a closer look

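For 5 genes the KO to WT ratio differed between 100 and 1000 cells by the test of the difference itself (edgeR quasi-likelihood, adjusted over all tested genes). The log2 interaction was −0.56 for *Trp53* (adjusted p = 0.0071), −0.77 for *Ccng1* (adjusted p = 0.0025), −0.67 for *Trp53inp1* (adjusted p = 0.025), −0.83 for *Zmat3* (adjusted p = 0.0093) and −0.87 for *Perp* (adjusted p = 0.0099). All 5 have the same sign. The KO libraries of 100 cells enter each of them, and there 10 brain markers summed to 338 to 345 cpm against at most 39.3 cpm in every other library. The WT libraries of 100 cells, which stood apart from each other the most (chi-square per degree of freedom of 17.6), also enter each. For *Trp53* the log2 ratio of 100 to 1000 cells was 0.48 in WT, which was not called, and −0.07 in KO. For the others this ratio was larger in size in KO than in WT. The part of either pair of libraries in the interactions was not tested.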

How the results depend on the processing

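Groups of 2 libraries limit the precision of each value, and leaving out 1 library leaves a lone library that is assumed to vary like the rest. The 10 genes had 690 values under the alternatives, the log2 size over 1 left out. Of these, 603 kept their direction and side of the threshold, 45 lost the call, 19 gained it and 23 changed sign. With a log2 size over 1 required, 0 of the 10 genes were called in KO against WT at either input. The same held in the interaction and in KO across inputs. Of the 30 other targets, 2 were called at 1000 cells and 4 at 100 cells. Among all 16816 tested genes, 1634 were then called at 1000 cells, 2696 at 100 cells, 1177 in the interaction and 2717 in KO across inputs. DESeq2 called 11 of the 30 other targets at 1000 cells, against 17. Over all genes it called 4760 of the 14470 with an adjusted p, against 6979 of 16816. In WT across inputs, 1 gene (*Trp53*) was called by limma-voom, DESeq2, without a filter, with 1 fit of all libraries and with the crossed block, and 0 otherwise apart from the leaving out of a library. The cause of these changes was not tested.

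With the replicate number as a block, the test called 6 of the 10 genes with 1000 cells and 5 with 100 cells, where *Trp53* lost its call (−0.31, adjusted p = 0.086), 6 in the interaction, where *Mdm2* gained one (adjusted p = 0.037), 0 in WT and 8 in KO across inputs. The block gave 18 and 19 of the other targets at 1000 and 100 cells. Among all 16816 tested genes it called 7426 and 6433 there, and 2684 in the interaction. Replicate numbers of WT at 1000 and 100 cells had a correlation of −0.124, so a crossed pairing was added after seeing the data and gave the 1 call above.

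Leaving out each library in turn gave 4 to 6 called genes at 1000 cells, 2 to 6 at 100 cells (3 without KO replicate 1 and 2 without KO replicate 2), 1 to 7 in the interaction, 0 to 4 in WT across inputs (2 without replicate 1 of 100 cells and 4 without replicate 2) and 7 to 8 in KO. The interaction gave 3 calls without replicate 1 of WT at 1000 cells, 2 without its replicate 2, 3 without KO replicate 2 of 1000 cells, and 3 and 1 without KO replicates 1 and 2 of 100 cells. For the other targets the range was 12 to 15 with 1000 cells and 4 to 23 with 100 cells, where KO replicates 1 and 2 left out gave 4 and 5. Among all tested genes, calls at 100 cells and in the interaction were also fewer without either KO library of 100 cells. They were more numerous without either WT library of 100 cells. These ranges are therefore not particular to the listed genes. With library size alone as the scaling, the median of all genes at 1000 cells shifted to −0.09. There 2776 genes were higher and 4290 lower, against 3514 and 3465. *Trp53inp1* was then called lower at 1000 cells (adjusted p = 0.012), and *Cdkn1a* was not called (adjusted p = 0.094).

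None of the values that changed sign had passed the test. Over the leaving out of each library, the log2 ratio of KO to WT at 1000 cells ran from −0.067 to 0.057 for *Zmat3* (0.0025 with thinned counts) and from −0.19 to 0.11 for *Sesn1*. At 100 cells it ran from −0.32 to 0.66 for *Bbc3* and from −0.17 to 0.16 for *Perp*, which also had 0.0032 with limma-voom, 0.0065 without a filter, 0.010 with at least 10 counts in every library and 0.032 with 1 fit of all libraries. In WT across inputs it ran from −0.16 to 0.12 for *Mdm2* (0.018 with thinned counts), −0.029 to 0.27 for *Ccng1*, −0.37 to 0.19 for *Trp53inp1*, −0.42 to 0.16 for *Bax*, −0.44 to 0.49 for *Bbc3* and −0.30 to 0.12 for *Zmat3*. In KO across inputs it ran from −0.11 to 0.22 for *Sesn1*.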
